A study of Rattus norvegicus with 12 samples.

Results

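The proteasome is the large protease that degrades proteins tagged with ubiquitin, and the genes of its subunits, activators and assembly factors were followed here in rat kidney. Its members were all genes on the array whose symbol begins with Psma to Psmg and a number, taken through the RefSeq accession of each probe. The immunoproteasome subunits Psmb8, Psmb9 and Psmb10 were set apart, as was Psmc3ip, which is no proteasome gene. The rule gave 42 of the 15284 named genes on the array, with 77 probes. It also took in Psme3ip1, which encodes a protein that binds an activator and is no subunit, and Psma8, the alpha subunit of the testis. Psmb11, Psmd11, Psmg1 and Psmg3 were not analysed here.

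The kidneys came from male Sprague-Dawley rats that were 5 weeks old when purchased, and each of the 12 arrays held Cy3-labelled RNA from the cortex of 1 animal. There were 4 groups of 3 rats. Bromodichloromethane (BDCM) is a by-product of water chlorination that is toxic to rodent kidney, and 2 groups received it at 200 mg/kg per day for 4 weeks. The other 2 groups received corn oil, the control vehicle, for the same time. All animals were bled 24 h after the last dose. In the experiment labelled B92 (the CO2-O2 experiment) 1 BDCM group and 1 oil group were under CO2-O2 gas, and in the experiment labelled B103 (the isoflurane experiment) the other pair was under isoflurane, so the gas and the experiment cannot be told apart.

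The catalytic core of the proteasome, the 20S particle, is a stack of rings. Alpha subunits form the outer rings and control entry, and beta subunits form the inner rings, where Psmb6, Psmb7 and Psmb5 carry the caspase-like, trypsin-like and chymotrypsin-like sites. The 19S cap recognises ubiquitin, removes it and threads the substrate into the core. When proteasome activity falls short, the transcription factor Nfe2l1 (Nrf1) is known to raise the genes of core and cap together. In the proximal tubule, which takes up and degrades filtered protein, the proteasome works beside the lysosome.

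Averaged over both experiments, 20 of the 42 proteasome genes rose with BDCM and 0 fell (limma, adjusted p below 0.05, Benjamini-Hochberg over the 34215 features tested). Among all features 17.8% rose and 20.4% fell, and among the 12205 named genes tested 19.3% rose. The changes were small except for the assembly chaperone Psmg4, which rose 1.80-fold. The median effect over the 42 genes was 0.16 on the log2 scale, against -0.05 over all features. Of the 42 effects, 39 lay above 0 and 3 below, while of the 34215 features 14977 lay above 0 and 19238 below. All 42 genes were tested and were well above background on all 12 arrays, so the filter on dim probes removed none of them.

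**Figure D1:**
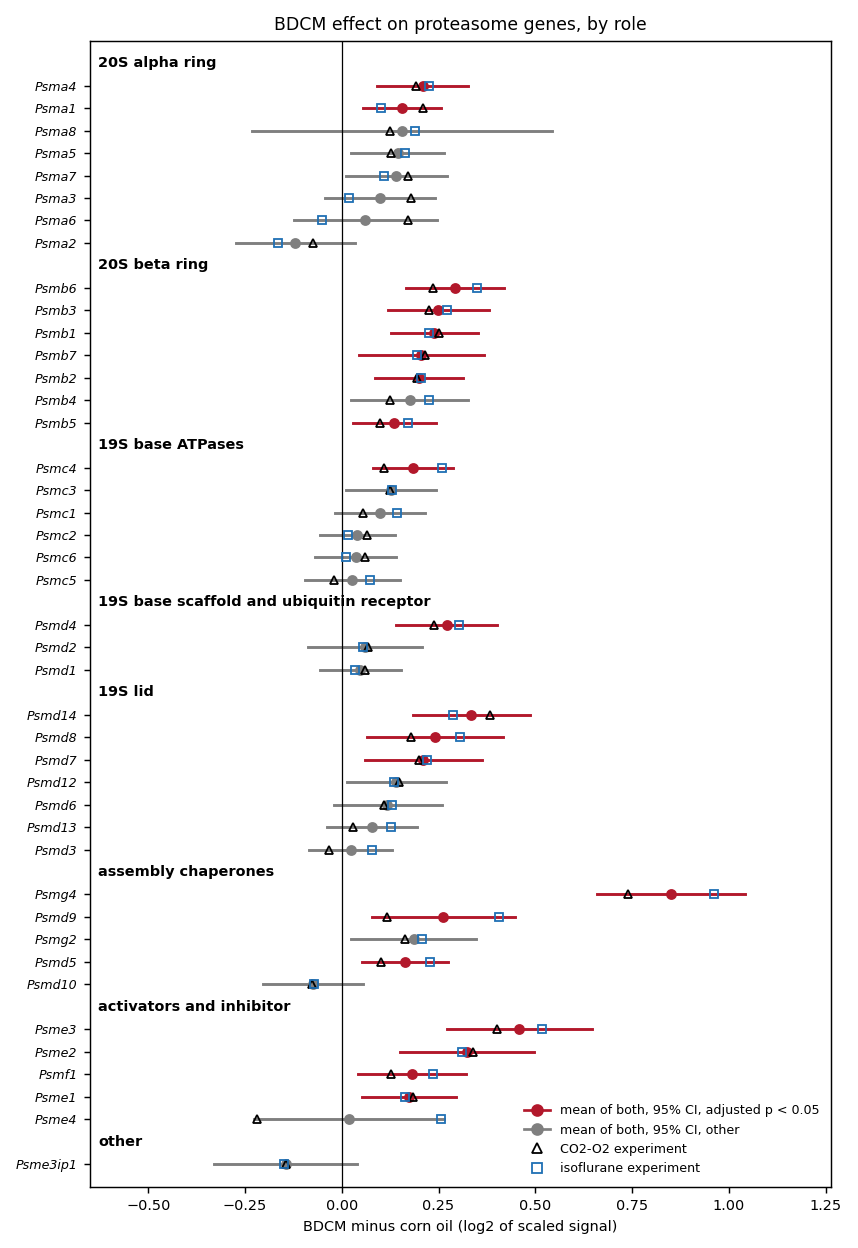
BDCM minus corn oil on the log2 scale for each of the 42 proteasome genes, grouped by role; circles and bars are the mean of both experiments with its 95% confidence interval, and open symbols are the single experiments. Red marks the 20 genes with an adjusted p below 0.05. Psmg4, at 0.85, lies beyond all other members, and the beta ring lies wholly to the right of 0.

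Animal by animal, the median of the set sat higher in treated rats, with 32 to 39 of the 42 genes above the mean of the experiment's oil controls in each BDCM animal. The median difference of the 42 genes from the mean of the experiment's own oil controls was 0.10, 0.14 and 0.12 in the 3 BDCM animals under CO2-O2. It was 0.13, 0.24 and 0.11 in those under isoflurane. In the 6 oil animals it ran from -0.02 to 0.03. The 6 treated animals thus all lay above the 6 controls on this summary, while the same median over all features ran from -0.06 to 0.01 in the 12 animals. Each oil animal is part of the mean it was set against, which narrows the spread of the oil animals but not of the treated ones. Isoflurane BDCM replicate 2 stood out most: it held the highest value of its group for 36 of the 42 genes, against 35.9% of all features. A control animal, CO2-O2 oil replicate 1, was also the highest of its group for 29 of the 42, against 31.5% of all features.

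**Figure D2:**
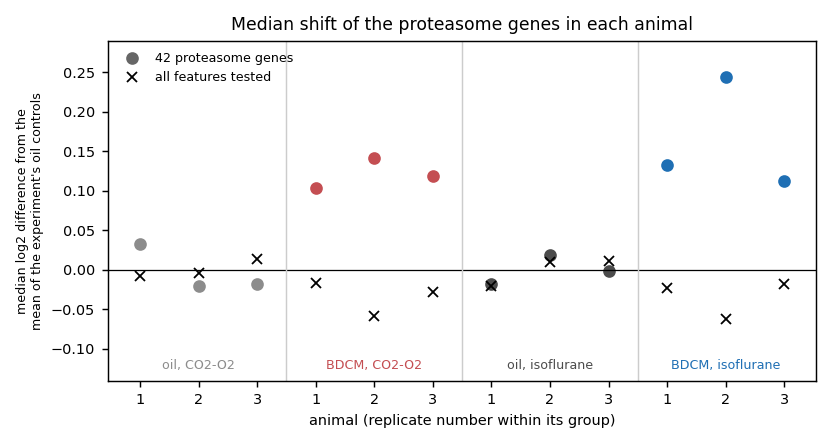
Median log2 difference from the mean of the same experiment's oil controls, for the 42 proteasome genes (circles) and for all features tested (crosses), in each of the 12 animals. The treated animals lie between 0.10 and 0.24, above the oil animals, and the crosses stay near or below 0.

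The cortex is a mixture of cells, and in bulk tissue fewer cells of a type and less RNA per cell cannot be told apart. All 6 proximal tubule markers were well above background on all arrays and all 6 fell with BDCM. Their summed signal ran from 928 to 1001 and 1125 to 1208 times the 75th percentile in CO2-O2 and isoflurane oil animals, and from 595 to 667 and 584 to 866 in BDCM animals. Of the other lists, 3 of 3 podocyte, 1 of 2 collecting duct and 2 of 2 erythroid markers fell. In the list of thick ascending limb and distal tubule 0 of 2 passed, and in that of endothelium 0 of 3. Of 8 hepatocyte markers 3 rose and 1 fell, and 3 were well above background on all arrays. The summed hepatocyte signal ran from 8.94 to 18.9 and 4.41 to 7.35 in the oil animals and from 23.4 to 26.8 and 13.3 to 17.8 in the BDCM animals, in the same order. The part of these cell types in the proteasome results was not tested.

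The members were also measured with little scatter. The median standard deviation within groups was 0.084 on the log2 scale for the 42 genes (from 0.036 for Psmc2 to 0.33 for Psma8), against 0.17 for all features and 0.16 for named genes. Effects of 0.14 on this scale could pass the test, as that of Psmb5 did.

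The core beta ring was the part of the particle with the most members past the threshold. Of its 7 measured genes 6 rose in the mean of both experiments (85.7%, against 17.8% of all features). The median effect of the 7 was 0.21 (all features -0.05). The seventh, Psmb4, stood at 0.17 ± 0.07 (SE; adjusted p = 0.065) on its brighter probe and at 0.25 ± 0.06 (adjusted p = 0.0078) on the other. Psmb6, which carries the caspase-like site, read 2.86, 2.75 and 2.86 in the CO2-O2 oil animals and 3.10, 3.02 and 3.05 in the CO2-O2 BDCM animals (log2 signal over the array's 75th percentile). Under isoflurane it read 2.78, 2.81 and 2.84 in oil and 3.16, 3.30 and 3.02 in BDCM animals. Treated and control animals did not overlap in either experiment, and the rise was 1.22-fold (95% confidence interval 1.12 to 1.34; n = 6 per treatment; adjusted p = 0.0027).

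Psmb3 and Psmb1 are structural subunits without a catalytic site, and both rose. Psmb3 rose 1.19-fold (interval 1.09 to 1.30; adjusted p = 0.0074) and Psmb1 1.18-fold (1.09 to 1.28; adjusted p = 0.0042), and in both genes all treated animals lay above all controls of their experiment. Psmb2 rose by 0.20 ± 0.05. The smallest rise of the ring was that of Psmb5, the chymotrypsin-like subunit, which read 4.53, 4.49 and 4.55 in CO2-O2 oil animals and 4.61, 4.65 and 4.60 in CO2-O2 BDCM animals. Under isoflurane its values were 4.47, 4.50 and 4.50 in oil and 4.65, 4.77 and 4.57 in BDCM animals. No treated animal fell within the range of its controls, but the effect was only 0.14 ± 0.05 (adjusted p = 0.048), and leaving out any of the 11 animals other than isoflurane BDCM replicate 3 ended the call (adjusted p up to 0.10). Psmb7, the trypsin-like subunit (0.21 ± 0.07, adjusted p = 0.047), lost its call without any of the 11 animals other than CO2-O2 BDCM replicate 2 (up to 0.095).

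Promoter sequences are shown for these core genes because the antioxidant response element, the site that Nfe2l1 and Nfe2l2 share, is known from proteasome promoters. The letters searched were TGACNNNGC, on both strands, in the window from 250 bases before to 50 bases after each RefSeq gene start (assembly GRCr8). Capitals mark the match. The stretches lie at chr5:144254965-144255023 (plus strand) for Psmb2, chr15:32047406-32047464 (minus strand) for Psmb5 and chr10:55737839-55737887 (plus strand) for Psmb6. The matches begin at -68, -60 and -24, counted from the end of the searched window, where the stretch of Psmb6 stops. Psmd1, at chr9:94157781-94157839 (plus strand), and Psma3, at chr6:95219712-95219748 (plus strand, match on the opposite strand), are set beside them because they hold the same letters and did not pass.
Psmb2: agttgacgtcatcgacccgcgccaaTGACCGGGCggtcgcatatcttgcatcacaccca
Psmb5: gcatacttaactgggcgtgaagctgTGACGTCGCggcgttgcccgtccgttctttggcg
Psmb6: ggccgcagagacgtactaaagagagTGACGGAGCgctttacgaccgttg
Psmd1: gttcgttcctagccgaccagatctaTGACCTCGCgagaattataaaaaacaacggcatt
Psma3: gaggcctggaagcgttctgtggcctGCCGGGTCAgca
Psmb2, Psmb5 and Psmb6 rose, while Psmd1 stood at 0.05 ± 0.05 and Psma3 at 0.10 ± 0.06. The letters occurred in 8 of the 38 members with a listed promoter (21.1%), in 4 of the 19 that rose and in 4 of the 19 that did not pass, against 14.4% of the named genes tested and 12.1% of all promoters of this length.

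The outer alpha ring was less uniform. Of its 8 genes 2 rose (25%, against 17.8% of all features), with a median effect of 0.14. Of the 8 effects 1 was negative. Psma4 read 5.49, 5.56 and 5.51 in CO2-O2 oil and 5.71, 5.73 and 5.69 in CO2-O2 BDCM animals. It read 5.36, 5.30 and 5.36 in isoflurane oil and 5.48, 5.71 and 5.52 in isoflurane BDCM animals. The groups were separate in both experiments, and the rise was 1.16-fold (interval 1.07 to 1.25; adjusted p = 0.010). Psma1 rose 1.11-fold (1.04 to 1.20; adjusted p = 0.021), a call that ended without CO2-O2 oil replicate 2 or 3 (up to an adjusted p of 0.057).

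At the other end of the alpha ring, Psma2 had an effect of -0.12 ± 0.07 (adjusted p = 0.20). It read 3.36, 3.32 and 3.30 in CO2-O2 oil against 3.24, 3.28 and 3.22 in CO2-O2 BDCM animals, so that here all treated animals lay below the controls. In the isoflurane experiment it read 3.43, 3.48 and 3.45 in oil and 3.04, 3.44 and 3.39 in BDCM animals, which overlap. Psma6 stood at 0.06 ± 0.08 on its brighter probe (adjusted p = 0.60). Its second probe gave 0.20 ± 0.05 (adjusted p = 0.0072), and on the brighter one a single isoflurane BDCM animal read 4.92 against 5.38 and 5.41 in the other two. Psma8, whose product belongs to the testis proteasome, had the widest scatter of all members and an effect of 0.16 ± 0.17 (adjusted p = 0.51).

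The 6 ATPases of the 19S base, which unfold the substrate, mostly did not pass the test. Only Psmc4 rose (16.7% of the 6, near the 17.8% of all features), and the median effect of the 6 was 0.07. Psmc4 read 2.44, 2.41 and 2.37 in CO2-O2 oil, 2.56, 2.51 and 2.47 in CO2-O2 BDCM, 2.53, 2.57 and 2.58 in isoflurane oil and 2.81, 2.89 and 2.75 in isoflurane BDCM animals. The treated animals stood above their controls in both experiments, by 1.14-fold on average (interval 1.06 to 1.22; adjusted p = 0.010). Its other 2 probes gave 0.06 ± 0.04 and 0.02 ± 0.06 (adjusted p = 0.33 and 0.82), so the call rests on the brightest probe. Psmc3 had the next highest effect, 0.13 ± 0.05, and did not pass (adjusted p = 0.081). Psmc5 and Psmc6 had the lowest effects of the 6, at 0.03 ± 0.06 and 0.04 ± 0.05, with overlapping groups.

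Among the 3 remaining base subunits the ubiquitin receptor Psmd4 rose and both scaffold subunits did not pass. Psmd4 read 3.68, 3.62 and 3.66 in CO2-O2 oil and 3.92, 3.86 and 3.90 in CO2-O2 BDCM animals. Its isoflurane values were 3.50, 3.62 and 3.69 in oil and 3.84, 4.06 and 3.81 in BDCM animals. The groups did not overlap, and the rise was 1.21-fold (interval 1.1 to 1.32; adjusted p = 0.0049). The scaffolds Psmd1 and Psmd2, around which the cap is built, had effects of 0.05 ± 0.05 and 0.06 ± 0.07, and their 95% intervals reached no further than 0.15 and 0.21. The 3 effects ran from 0.05 to 0.27, and differences between these genes were not tested.

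In the 19S lid, 3 of 7 genes rose (42.9%, against 17.8% of all features) and the median effect was 0.14. Psmd14, the metalloprotease that cuts ubiquitin chains from the substrate, moved most. It read 1.22, 0.86 and 1.04 in CO2-O2 oil and 1.35, 1.43 and 1.5 in CO2-O2 BDCM animals. Under isoflurane the readings were 0.92, 0.75 and 0.83 in oil and 1.09, 1.13 and 1.15 in BDCM animals. All treated animals exceeded their controls, by 1.26-fold (interval 1.14 to 1.40; adjusted p = 0.0036). Psmd8, a structural subunit, rose 1.18-fold (adjusted p = 0.034), a call lost (adjusted p up to 0.072) without CO2-O2 oil replicate 2 or 3, any CO2-O2 BDCM animal, or isoflurane oil replicate 1 or 2. Psmd7, the partner of Psmd14, rose by 0.21 ± 0.07, and its call was lost (up to 0.080) without CO2-O2 oil replicate 2 or 3, CO2-O2 BDCM replicate 1 or 3, isoflurane oil replicate 1 or 3, or isoflurane BDCM replicate 2 or 3. The lowest lid effects were those of Psmd3 (0.02 ± 0.05) and Psmd13 (0.08 ± 0.05), which did not pass.

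**Figure D3:**
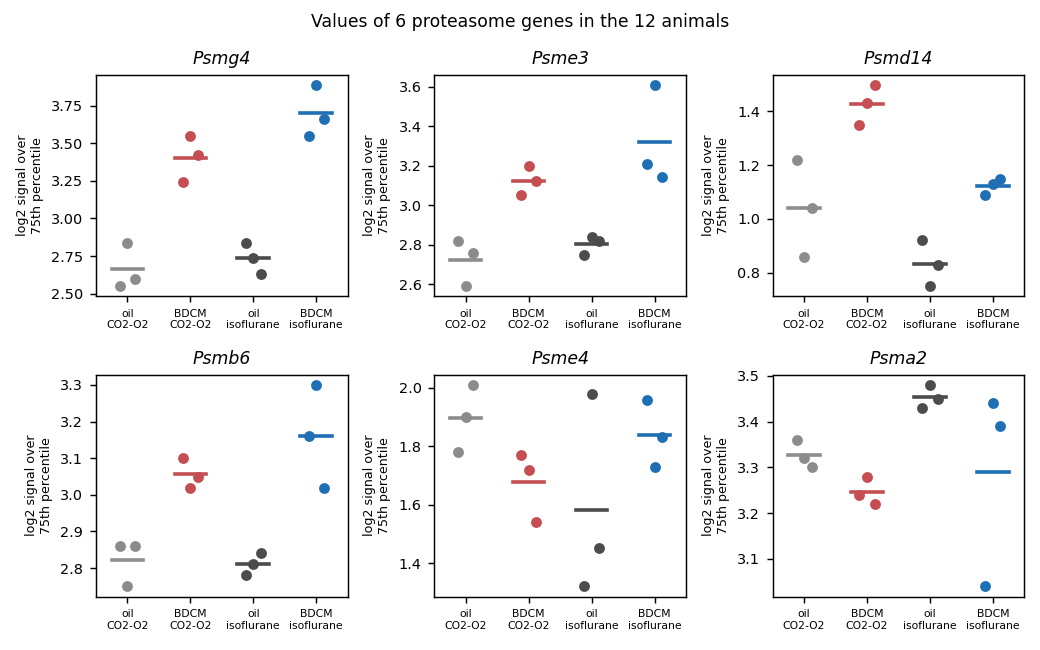
Log2 signal over the array's 75th percentile in each animal (points) with the group mean (lines) for 4 genes that rose and for Psme4 and Psma2, which did not pass; each panel has its own axis. Psmg4, Psme3, Psmd14 and Psmb6 separate treated from oil animals in both experiments.

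The largest response of any member came from an assembly factor. Psmg4 helps the alpha ring to form before the core is built. It read 2.55, 2.84 and 2.60 in CO2-O2 oil and 3.24, 3.55 and 3.42 in CO2-O2 BDCM animals. Under isoflurane the values were 2.84, 2.74 and 2.63 in oil and 3.55, 3.89 and 3.66 in BDCM animals. The lowest treated animal thus lay well above the highest control in each experiment. The rise was 0.85 ± 0.09 on the log2 scale, or 1.80-fold (interval 1.58 to 2.06; n = 6 per treatment; adjusted p = 4.26e-05). It passed within each experiment, at 0.74 ± 0.12 under CO2-O2 (adjusted p = 0.0025) and 0.96 ± 0.12 under isoflurane (adjusted p = 3.38e-04), and on each of its 3 probes (0.73, 0.76 and 0.85).

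Psmg2, another chaperone of the alpha ring, had an effect of 0.19 ± 0.07 that did not pass (adjusted p = 0.067). The chaperones of the 19S base differed from one another. Psmd9 rose 1.20-fold (interval 1.06 to 1.36; adjusted p = 0.031). It read 3.76, 3.79 and 3.83 in CO2-O2 oil against 3.80, 4.19 and 3.74 in CO2-O2 BDCM animals, which overlap, and 3.82, 3.78 and 3.65 against 4.07, 4.29 and 4.11 under isoflurane, which do not. The call in the mean ended (up to 0.071) without any CO2-O2 oil animal, isoflurane oil replicate 2 or 3, or isoflurane BDCM replicate 2. Psmd5 rose by 0.16 ± 0.05 (adjusted p = 0.025), and lost its call (up to 0.062) without CO2-O2 oil replicate 1, CO2-O2 BDCM replicate 1 or isoflurane oil replicate 3, while Psmd10 stood at -0.07 ± 0.06 (adjusted p = 0.34).

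The promoters of these chaperones are shown next, since they include the gene that rose most. That of Psmd9 held 2 matches of TGACNNNGC, at chr12:39018308-39018366 and chr12:39018355-39018413 (minus strand, the second match on the opposite strand). That of Psmg4 held no such letters, but at chr17:30923375-30923433 (minus strand, match on the opposite strand) it had the looser core TGANNNNGC. TGACNNNGC is a special case of that core.
Psmd9, nearer the start: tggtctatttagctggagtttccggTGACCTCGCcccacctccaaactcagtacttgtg
Psmd9, farther away: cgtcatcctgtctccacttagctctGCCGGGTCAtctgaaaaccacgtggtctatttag
Psmg4: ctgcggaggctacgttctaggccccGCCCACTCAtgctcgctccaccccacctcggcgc
The looser core was in 21 of the 38 member promoters (55.3%), 11 of 19 that rose and 10 of 19 that did not pass, against 42.7% of the named genes tested and 40.5% of all promoters. The box CCAAT, read by the factor NF-Y, was in 19 of 38 (50%), against 37.9% and 37.5%. Of the 19 promoters with CCAAT, 11 belonged to members that rose and 8 to members that did not pass.

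The 11S activators and the other regulators were the group in which most genes rose beside the beta ring. Of the 5 genes 4 rose (80%, against 17.8% of all features), with a median effect of 0.18. Psme3 (PA28 gamma), a nuclear activator that opens the core without ubiquitin, read 2.82, 2.59 and 2.76 in CO2-O2 oil and 3.05, 3.20 and 3.12 in CO2-O2 BDCM animals. The isoflurane readings were 2.75, 2.84 and 2.82 in oil and 3.21, 3.61 and 3.14 in BDCM animals. Treated and control animals did not overlap, and the rise was 1.38-fold (interval 1.21 to 1.57; adjusted p = 0.0020). Its second probe gave a smaller rise of 0.27 ± 0.06 (adjusted p = 0.0061).

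Psme2 and Psme1 encode the subunits of the interferon-inducible activator PA28, and both rose. Psme2 read 4.96, 5.0 and 5.03 in CO2-O2 oil, 5.07, 5.43 and 5.50 in CO2-O2 BDCM, 4.82, 4.86 and 4.83 in isoflurane oil and 5.02, 5.27 and 5.15 in isoflurane BDCM animals. That made 1.25-fold (interval 1.11 to 1.41; adjusted p = 0.0086), against 1.13-fold for Psme1 (1.04 to 1.23; adjusted p = 0.030), which lost its call (up to 0.074) without CO2-O2 oil replicate 1, CO2-O2 BDCM replicate 3, isoflurane oil replicate 1 or 2, or isoflurane BDCM replicate 1 or 2. Psmf1, a regulator that binds the core (PI31), rose by 0.18 ± 0.06, a call lost (up to 0.095) without any animal other than CO2-O2 BDCM replicates 1 and 3. Its 2 other probes had adjusted p values of 0.070 and 0.075.

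Psme4 (PA200), a nuclear activator linked to histone turnover, was the member whose effects in the 2 experiments lay farthest apart. It read 1.78, 1.90 and 2.01 in CO2-O2 oil against 1.77, 1.72 and 1.54 in CO2-O2 BDCM animals, all of the latter lower. Under isoflurane it read 1.32, 1.98 and 1.45 in oil against 1.96, 1.73 and 1.83 in BDCM animals, which overlap. The effects were -0.22 ± 0.16 and 0.26 ± 0.16, and their difference, 0.47 ± 0.22, did not pass (adjusted p = 0.93). The other tested probes of Psme4 gave -0.368 and -0.401 under CO2-O2 and 0.051 and 0.095 under isoflurane. In the mean they stood at -0.158 and -0.153, against 0.019 on the probe used, and none of these passed. Psme3ip1, the binding partner of Psme3, had the lowest mean effect of all members, -0.15 ± 0.08 (adjusted p = 0.20), with overlapping groups.

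Within the CO2-O2 experiment alone 5 members rose (Psma1, Psmb1, Psmd14, Psme3 and Psmg4), where 10.0% of all features rose and 9.88% fell. Within the isoflurane experiment 10 rose (Psma4, Psmb1, Psmb3, Psmb6, Psmc4, Psmd4, Psmd5, Psmd9, Psme3 and Psmg4), where 13.2% rose and 12.8% fell. None of the 42 fell in either. As a share of the members the CO2-O2 count, 11.9%, is near that of all features, and the isoflurane count, 23.8%, is higher. Psmb1, Psme3 and Psmg4 rose in both. The median effect of the 42 genes was 0.13 under CO2-O2 and 0.18 under isoflurane, against -0.04 over all features in each.

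All treated animals exceeded all controls for 22 of the 42 genes under CO2-O2, for 25 under isoflurane and for 19 in both, while 18.3, 20.6 and 13.5% of all features did so. The reverse order was seen for Psma2 and Psme4 under CO2-O2 and for 0 genes under isoflurane. How many of all features showed the reverse order is not given here. The effects of the 2 experiments, which share no animals, pointed up in both for 35 genes, down in both for 3 (Psma2, Psmd10 and Psme3ip1), and in opposite directions for 4 (Psma6, Psmc5, Psmd3 and Psme4). Taken singly, 36 members lay above 0 under CO2-O2 and 38 under isoflurane, against 15252 and 15493 of the 34215 features. Across the 42 genes the 2 sets of effects had a Pearson r of 0.77 and a Spearman rho of 0.62, or 0.63 and 0.60 without Psmg4; genes measured on the same arrays are not independent, and no test was made.

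No member had a BDCM effect that differed between the experiments past the threshold, nor did any feature (0.0% of the 34215 by limma). At an unadjusted p below 0.05 the counts were 0 of the 42 members and 1729 of all features. The largest differences among the members beside that of Psme4 were for Psmd9, at 0.29 ± 0.17, and Psmg4, at 0.22 ± 0.17 (both with an adjusted p of 0.93). With 3 animals per group, these intervals are too wide to call the experiments equal.

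The single-experiment counts depended on single animals and on the slide. With each animal left out in turn, 11 of the 20 members that rose in the mean kept their call throughout: Psma4, Psmb1, Psmb2, Psmb3, Psmb6, Psmc4, Psmd4, Psmd14, Psme2, Psme3 and Psmg4. The count in the mean fell to 13 without CO2-O2 oil replicate 2 and to 13 without replicate 3. In the CO2-O2 experiment it went from 5 to 1 without oil replicate 2 or 3 or BDCM replicate 3, to 2 without oil replicate 1 or BDCM replicate 2, to 3 without any of the isoflurane oil animals, whose scatter enters the fit, and to 8 without isoflurane BDCM replicate 2. In the isoflurane experiment it went from 10 to 3 without isoflurane oil replicate 1 or BDCM replicate 2 and to 5 without isoflurane oil replicate 2 or 3. Of the single-experiment calls, Psmg4 under CO2-O2 and Psmb6, Psme3 and Psmg4 under isoflurane held without each animal in turn.

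Slides carried uneven numbers of treated and control animals. On slide 1, with 3 CO2-O2 oil animals and 1 BDCM animal, the members' median difference was 0.14 and 37 of 42 lay above 0 (this animal is CO2-O2 BDCM replicate 2, whose median is given with the other animals). On slide 4, with 1 isoflurane oil animal and 2 BDCM animals, it was 0.21 and 39 of 42 lay above 0. Over all features the medians on these slides were both -0.06, with 44.2% and 44.4% above 0. Psmg4 differed by 0.89 and 1.09 and Psme3 by 0.48 and 0.59 on these 2 slides. With the slide as a fixed term 7 members rose in the mean: Psmb1, Psmb6, Psmd6, Psmd9, Psme3, Psmf1 and Psmg4. The share of all features that rose in that fit is not given here.

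**Figure D4:**
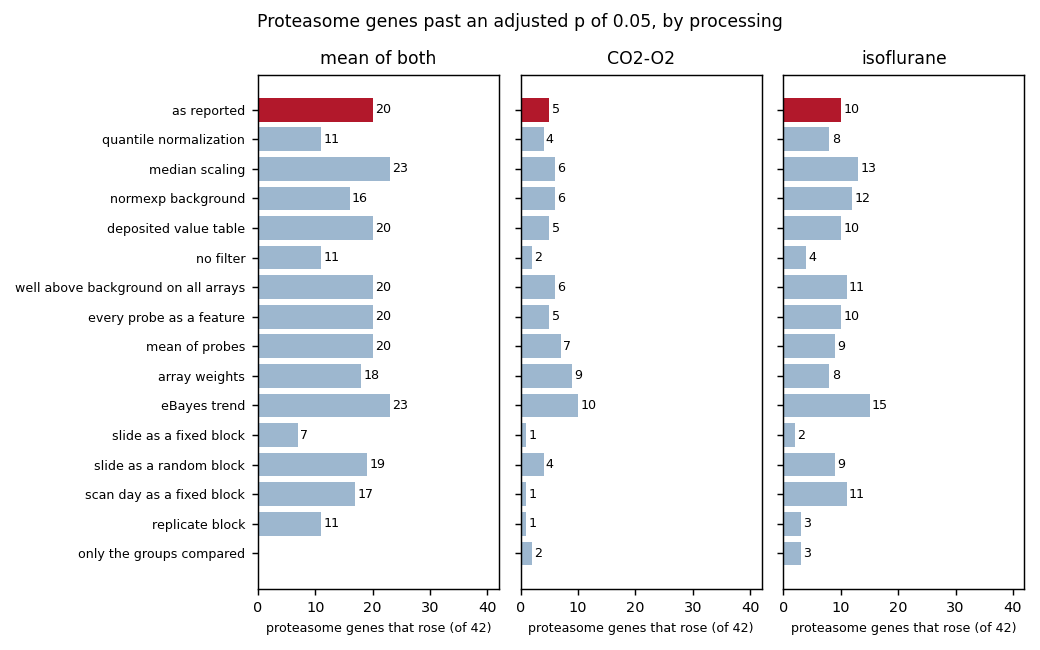
Number of the 42 proteasome genes that rose at an adjusted p below 0.05 in the mean of both experiments and in each experiment, as reported (red) and under each alternative processing (blue); bars start at 0, and the mean has no bar where only the groups of 1 experiment were fitted. The count in the mean runs from 7 with the slide as a fixed block to 23 with median scaling or an eBayes trend.

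Before any treatment effect, the 2 experiments could differ. Among the oil controls 0 members were higher and 3 lower in the isoflurane than in the CO2-O2 experiment, where 7.53% of features were higher and 3.56% lower. Psmd5 read 0.72, 0.78 and 0.80 in CO2-O2 oil and 0.40, 0.40 and 0.28 in isoflurane oil animals, without overlap, a difference of -0.41 ± 0.07 (adjusted p = 0.0067) that held without each animal in turn. Psma5, of the alpha ring, differed by -0.29 ± 0.08 (adjusted p = 0.036, lost without any 1 of the 6 oil animals, up to 0.12). Psmd10 differed by -0.29 ± 0.08 too (adjusted p = 0.047, lost without any animal other than CO2-O2 BDCM replicate 2, isoflurane oil replicate 3 and isoflurane BDCM replicate 2, up to 0.14).

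Between the BDCM groups 2 members were higher and 5 lower under isoflurane, where 11.9% of features were higher and 5.25% lower. Psmc4 (0.30 ± 0.07, adjusted p = 0.014) and Psmd3 (0.25 ± 0.07, adjusted p = 0.031) were higher. Psma1 (-0.29 ± 0.06, adjusted p = 0.014), Psma3, Psma5, Psmd5 and Psmd10 were lower. Of these 7, Psma1 and Psmc4 kept their calls without each animal in turn. Psmd3 lost its call without any 1 of the 6 BDCM animals (up to 0.084), and Psmd5 without CO2-O2 BDCM replicate 1 or isoflurane BDCM replicate 1 or 3 (up to 0.067). Psma3, Psmd10 and Psma5 lost theirs without any of 10, 10 and 11 animals. The experiments differ in gas, slides and scan days at once, which cannot be told apart. Scaling matters to the direction here: with each array centred on its median instead of its 75th percentile, the median of all features in the oil comparison moved from 0.05 to -0.06 and that of the members from -0.06 to -0.17.

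The 3 immunoproteasome subunits replace Psmb6, Psmb7 and Psmb5 in cells exposed to interferon. Psmb10, which replaces Psmb7, read 2.67, 2.68 and 2.82 in CO2-O2 oil and 3.07, 3.46 and 3.72 in CO2-O2 BDCM animals. In the isoflurane experiment it read 2.95, 2.65 and 2.97 in oil and 3.18, 3.70 and 3.35 in BDCM animals. Treated animals were higher without overlap, by 1.54-fold (interval 1.27 to 1.87; adjusted p = 0.0034), a wider change than the 1.15-fold (1.03 to 1.29) of Psmb7, though the difference between the 2 genes was not tested. With the slide as a fixed block Psmb10 did not pass (adjusted p = 0.082).

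Psmb9 and Psmb8, which replace Psmb6 and Psmb5, had effects of 0.39 ± 0.14 (adjusted p = 0.052) and 0.38 ± 0.16 (adjusted p = 0.088) and did not pass. Psmb9 read 1.20, 1.36 and 1.44 in CO2-O2 oil, 1.53, 1.92 and 2.36 in CO2-O2 BDCM, 1.17, 1.00 and 1.57 in isoflurane oil and 1.37, 1.36 and 1.57 in isoflurane BDCM animals. The treated animals were separate under CO2-O2 and overlapped the controls under isoflurane. All 3 varied more between animals than their constitutive counterparts: the standard deviation within groups was 0.30, 0.27 and 0.23 for Psmb8, Psmb9 and Psmb10, and 0.054, 0.080 and 0.12 for Psmb5, Psmb6 and Psmb7.

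**Figure D5:**
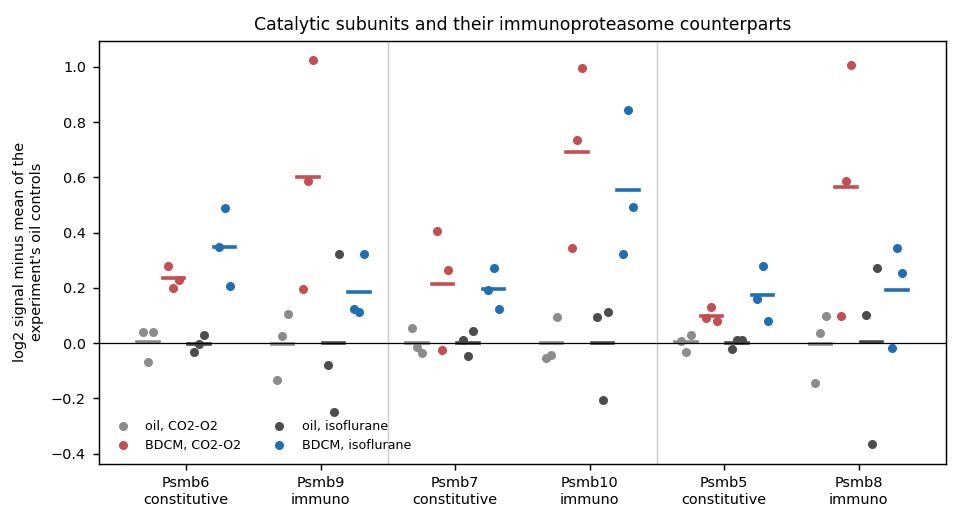
Log2 signal minus the mean of the same experiment's oil controls for the 3 constitutive catalytic subunits and, beside each, the immunoproteasome subunit that replaces it; points are animals and lines are group means. The immunoproteasome subunits spread over a wider range than their counterparts, and CO2-O2 BDCM replicate 3 is the highest animal for Psmb8, Psmb9 and Psmb10.

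Genes that load proteasome-made peptides onto class I molecules were measured as well. Of 9 genes in the list of immunoproteasome and peptide loading, 5 rose (55.6%, against 17.8% of all features) and 1 fell. The median effect of the 9 was 0.58 (all features -0.05). Tapbp, the tapasin that holds the class I molecule to the peptide pump, rose 1.72-fold (adjusted p = 8.23e-05). The pump subunit Tap2 rose by 0.65 ± 0.19, and the interferon-response factor Irf1 by 0.76 ± 0.15. In the single experiments Irf1 passed under CO2-O2, at 1.08 (limma, adjusted p = 0.0059), and not under isoflurane. B2m, the light chain of class I, fell by 0.25 on the log2 scale (adjusted p = 0.018). The calls for Tap2 and B2m were lost with the slide or scan day as a block, for Tap2 also with the replicate block and for B2m with normexp (up to 0.13 each). Leukocyte markers did not rise with them: of 11, 0 rose and 1 fell, and 7 were well above background on all arrays. The marker that fell was Cd74, at -1.05 on the log2 scale in the mean. The summed signal of the leukocyte markers, in multiples of the array's 75th percentile, ran from 27.1 to 46.2 and 50.3 to 54.6 in the CO2-O2 and isoflurane oil animals. In the BDCM animals it ran from 17.0 to 28.4 and 19 to 27.0. A sum weighs the brightest markers most, and the part of Cd74 in it was not tested.

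The RNA of the factor Nfe2l1 rose as well. It read 0.90, 0.87 and 0.89 in CO2-O2 oil and 1.28, 2.05 and 1.44 in CO2-O2 BDCM animals. Its isoflurane values were 0.91, 0.98 and 0.95 in oil and 1.54, 1.86 and 1.68 in BDCM animals. The groups were far apart in both experiments, and the rise was 1.65-fold (interval 1.38 to 1.99; adjusted p = 0.0011). Nfe2l2 (Nrf2), its relative in the antioxidant response, had an effect of 0.02 ± 0.06 with an interval from -0.12 to 0.16. Only RNA was measured, and whether either factor acted on the proteasome genes was not tested. Of the 11 genes of proteasome gene control tested 2 rose and 0 fell (18.2% rose, a share near the 17.8% of all features), the other being Maff, a small Maf partner of both factors, at 0.96 ± 0.19.

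Factors that work with the particle but lie outside the Psm names were mixed. Of 7 tested 3 rose (42.9%, against 17.8% of all features). The ubiquitin receptor Adrm1 rose by 0.35 ± 0.07 (adjusted p = 0.0043) and the cap-associated thioredoxin Txnl1 by 0.29 ± 0.06 (adjusted p = 0.0053). Midn, which brings nuclear proteins to the proteasome, rose by 0.25 ± 0.08. With the slide as a fixed block Adrm1 and Midn did not pass, Midn likewise with normexp, no filter, an eBayes trend or the scan day as a block (up to 0.64). The call for Midn also ended (adjusted p up to 0.081) without CO2-O2 oil replicate 1 or 2, CO2-O2 BDCM replicate 3, isoflurane oil replicate 1 or 3, or isoflurane BDCM replicate 2 or 3. Pomp, the chaperone of beta ring assembly, read 5.82, 5.81 and 5.85 in CO2-O2 oil, 5.75, 5.86 and 5.83 in CO2-O2 BDCM, 5.67, 5.74 and 5.72 in isoflurane oil and 5.47, 5.86 and 5.77 in isoflurane BDCM animals. These overlapped throughout, and its effect was -0.01 ± 0.07, with an interval from -0.16 to 0.14 that does not reach the effect of Psmg4.

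Rps27a, which encodes ubiquitin joined to a ribosomal protein, rose. It read 6.07, 6.13 and 6.15 in CO2-O2 oil, 6.78, 6.99 and 6.88 in CO2-O2 BDCM, 6.34, 6.36 and 6.37 in isoflurane oil and 7.12, 7.44 and 7.17 in isoflurane BDCM animals. That was 1.78-fold without overlap (interval 1.61 to 1.97; adjusted p = 7.42e-06). The polyubiquitin gene Ubb did not pass, at -0.05 ± 0.05 (adjusted p = 0.48).

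Among the shuttles and among the conjugating enzymes and ligases, the shares of genes that rose were near that of all features. Of 15 shuttle and segregase genes 3 rose and 1 fell (20% rose, against 17.8% of all features), with a median of 0.09. The arsenite-inducible proteasome partner Zfand2a rose 1.88-fold, the autophagy receptor Sqstm1 1.56-fold, with isoflurane BDCM replicate 2 at 5.99 against 4.88 and 5.0 in its group, and the shuttle Rad23b 1.34-fold. The shuttle Ubqln1 fell by 0.16 on the log2 scale, a call lost (adjusted p up to 0.16) with median scaling, normexp, no filter, or the slide, scan day or replicate as a block. Of 12 ubiquitin-conjugating enzymes and chaperone-linked ligases 2 rose (16.7%), among them Ube2j1 of endoplasmic reticulum degradation at 0.51 ± 0.11, and 1 fell, Ube2g2 of the same pathway at -0.23 ± 0.06. Ube2d1 rose by 0.30 ± 0.08. The calls for Zfand2a, Sqstm1, Ube2d1 and Ube2g2 were lost with the slide as a fixed block, and that for Ube2g2 also with the scan day as a block or the mean of its probes (up to 0.23).

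Of the 11 deubiquitinases 3 rose (27.3%) and 3 fell, where 17.8% of all features rose and 20.4% fell. Uchl1, a ubiquitin hydrolase best known from neurons, read -0.75, -1.45 and -0.94 in CO2-O2 oil and 0.76, 1.07 and 0.59 in CO2-O2 BDCM animals. The isoflurane readings were -1.12, -0.98 and -0.96 in oil and 0.76, 2.16 and 0.89 in BDCM animals. It rose 4.20-fold (interval 2.93 to 6.0; adjusted p = 9.12e-05), without overlap. Its relative Uchl3 rose 1.20-fold and Usp5, which takes apart free ubiquitin chains, 1.19-fold. The 2 effects behind the mean of Usp5 were 0.05 ± 0.09 under CO2-O2 and 0.44 ± 0.09 under isoflurane (adjusted p = 0.75 and 0.0072), and their difference, 0.39 ± 0.13, did not pass (adjusted p = 0.93). Usp10 fell by 0.38, Otub1 by 0.21 and Usp7 by 0.20 on the log2 scale. For Otub1 the mean hides 2 unlike effects, -0.46 ± 0.09 under CO2-O2 (adjusted p = 0.0055) and 0.05 ± 0.09 under isoflurane, though their difference of 0.52 ± 0.12 did not pass (adjusted p = 0.93). Its call in the mean was lost (adjusted p up to 0.058) without CO2-O2 oil replicate 1 or 2, CO2-O2 BDCM replicate 3 or isoflurane oil replicate 3. The call for Usp7 was lost (up to 0.068) without CO2-O2 oil replicate 3, CO2-O2 BDCM replicate 2, isoflurane oil replicate 2 or isoflurane BDCM replicate 2. With the slide as a fixed block, Usp5, Usp10, Otub1 and Usp7 did not pass, nor did Usp5, Otub1 and Usp7 with the replicate block or Otub1 and Usp7 with median scaling or no filter. Over all 70 distinct pathway genes tested 20 rose and 6 fell (28.6% rose, against 17.8% of all features), with a median of 0.07 (all features -0.05).

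Agreement between probes was partial. Of the 74 probes of members that could be tested 32 rose and 0 fell. The share of all probes that rose in the same fit, with each probe as a feature, is not given here. Of the 24 members with several tested probes, 17 had the same call on all of them and 7 did not: Psma6, Psmb4, Psmc4, Psmd7, Psmd9, Psmd12 and Psmf1. The RefSeq gene table also lists pseudogenes or gene copies for 19 of the 42 members, among them 10 for Psmb3, 5 for Psma6, 4 for Psme3 and 3 for Psmg4, and whether a probe also binds their transcripts was not tested.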

How the data were processed

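Intensity values were deposited by the authors as 1 scanner file per array. The software was Agilent's Feature Extraction, version 10.7 as the submitters' processing notes have it. The deposited value table holds a ratio, each processed signal over the array's 75th percentile, as set against the scanner files. Its 6 CO2-O2 columns match another animal of the same group, so animals are numbered by their scanner files, which does not change the groups.

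Of 61657 non-control probes, 33356 carry an accession and 27460 matched 1 symbol in the RefSeq gene table (GRCr8; none matched several). For genes with several probes the brightest stood for the gene. The log2 processed signal was taken minus that of the array's 75th percentile, without 115 outlier values and 84 spike-in probes. A feature was kept if at least 1 group had it well above background in all 3 animals, which left 34215 of 49397. The 75th percentile ran from 1080 to 1476 intensity units, 67.4 to 72.5% of probes were well above background, and 0 to 6 were saturated. The number of arrays limits the precision.

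limma 3.58.1 (R 4.3.3) fitted 1 mean per group to all features. The comparisons were BDCM against oil per experiment, the mean and the difference of both, and isoflurane minus CO2-O2 in each treatment, with Benjamini-Hochberg adjustment over all features and a threshold of 0.05. Steps were tested on simulated data. Labels name the animals as biological replicates. Named were the 2 highest and 2 lowest effects of each role, members that fell or differed between experiments, up to 6 that passed between oil controls, up to 3 per direction in each pathway list, Psmb8, Psmb9, Psmb10, Nfe2l1, Nfe2l2 and Pomp; other names were given after their values were seen. Some genes of the pathway lists are not reported here. The members and lists were chosen with earlier results of these data known. Alternatives changed scaling, background, filter, probe choice, model, block and threshold, and left out each animal. Figures were drawn with matplotlib 3.10.9.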

Additional observations from a re-analysis of the deposited data

How the results depend on the processing

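No member fell past the threshold in the mean or in either experiment under any alternative tried, and 4 of the 20 that rose in the mean (Psmb1, Psmb6, Psme3 and Psmg4) passed in all 26 alternatives at an adjusted p of 0.05. The 20 became 11 with quantile normalization, 11 without the filter, 7 with the slide as a fixed block (a fit in which few slides hold both treatments), 11 with the replicate block, 8 at an adjusted p of 0.01 and 1 at 1.5-fold. In the CO2-O2 experiment the 5 became 2 without the filter, 9 with array weights, 10 with an eBayes trend, 1 with the slide, 1 with the scan day and 1 with the replicate as a block (replicate block), 2 with the groups compared alone, 1 at 0.01 and 1 at 1.5-fold. In the isoflurane experiment the 10 became 4 without the filter, 2 with the slide as a fixed block, 3 with the replicate block, 3 with the groups alone, 1 at 0.01 and 1 at 1.5-fold; the eBayes trend gave 15.

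Of oil controls, 3 lower became 6 with median scaling, 5 with array weights or trend, 1 without the filter, with slide as a random block or at 0.01, and 0 at 1.5-fold. Between BDCM groups, 2 higher became 0 with median scaling, the mean of probes, the groups alone, 0.01 or 1.5-fold, and 1 without the filter or with array weights; 5 lower became 8 with quantile, median scaling or trend, 3 with normexp or slide as a random block, 1 without the filter, and 0 with the groups alone, 0.01 or 1.5-fold.

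The members' median effect moved from 0.156 to 0.094 with quantile normalization in the mean, and from 0.18 to 0.11 with quantile and 0.22 with median scaling under isoflurane. Leaving out each animal in turn gave 13 to 19 risers in the mean, 1 to 8 under CO2-O2 and 3 to 10 under isoflurane, 1 to 4 lower among oil controls, 1 to 3 higher and 1 to 7 lower between BDCM groups, and medians of 0.13 to 0.17, 0.12 to 0.15 and 0.13 to 0.21. The cause of these shifts was not tested. Shares of all features past the threshold under the alternatives are not given here, so the member counts cannot be set against them.

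Same-numbered oil and BDCM animals had correlated deviations of -0.02 to 0.05, so the numbers were not taken to pair them, and not every sample correlated best with its own number. Intervals of single genes are limited by 3 arrays per group.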
